A study of Mus musculus with 6 samples.

Results

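The genes described here encode integrins and the adhesion molecules that integrins or lymphocytes bind. They were taken by name: every array probe whose gene name starts with Itga or Itgb, is an Icam with a number, or is Vcam1, Selplg, Sele, Selp, Cd44, Cd47, Cd48, Cd58, Spn or Pecam1. The rule found 95 probes for 44 gene names, of 28632 gene names on the array. No probe is named Cd58. Of the 44 genes, 38 were measured well enough to be tested, among 19225 genes tested in all. The 6 others were not tested: Itga2, Itga11, Itgbl1, Sele and Itgb1bp3 were not well above background on enough arrays, and Icam5 had too few spots free of outlier marks.

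Vasoactive intestinal peptide (VIP) is a neuropeptide whose receptors on lymphocytes raise cyclic AMP. The study compared resting CD4 T cells from mouse spleen with VIP against the same kind of cells without it. Both groups came from C57BL/6J mice of both sexes, aged 6 to 32 weeks, with 5 to 10 spleens pooled for a sample, so that no value belongs to 1 animal. After lysis of red cells, CD4 cells were taken with magnetic beads, and 250 ng of total RNA went into the labelling. The sample titles speak of splenocytes, and every other label of CD4 T cells. The sources used here state neither a dose nor a duration for VIP. Each of 6 2-colour Agilent arrays carried VIP-treated and untreated RNA of 1 numbered biological replicate. VIP-treated RNA was in Cy5 on replicates 1, 3 and 5 and in Cy3 on replicates 2, 4 and 6, and 3 slides held replicates 1 and 2, 3 and 4, and 5 and 6.

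Integrins are pairs of an alpha and a beta chain that span the membrane and bind matrix proteins or counter-receptors on other cells. On T cells the pairs of Itgal with Itgb2 (LFA-1) and of Itga4 with Itgb1 or Itgb7 (VLA-4 and alpha4beta7) bind ICAMs, Vcam1 and the mucosal addressin. Their activity is set mainly from inside the cell, by the small GTPase Rap1 and the adaptors talin and kindlin. Selectins and their ligand Selplg (PSGL-1) start the rolling of lymphocytes on vessel walls, before integrins arrest them.

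Of the 38 tested adhesion genes 2 were lower with VIP and none was higher: Itga6 and Itga1 fell. Both encode alpha chains that pair with Itgb1, Itga6 for laminin receptors and Itga1 for a collagen receptor. The 2 that fell are 5.26% of the 38, and over all genes tested 3.08% were called in either direction and 1.37% were called lower. Calls are at a Benjamini-Hochberg adjusted p under 0.05 over all 19225 genes by limma. At an unadjusted p under 0.05 there were 6 adhesion genes (15.8%), against 3212 of all genes (16.7%), and 1 of the 6, Itga9, was higher with VIP. In these RNA extracts of many cells, fewer cells of a type and less RNA per cell cannot be told apart.

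The probes behind the calls are shown first, since probes of the same gene gave different values. All are 60 bases long. For a probe that lies in an unbroken stretch of the genome the first 30 bases are given, and for the Itga1 probes that cross an exon junction all 60. Positions are on mm9 and count from 1, and exons and UTRs are not given because no annotation of that build was used here. The sequences are those of the scanner files, 5′ to 3′, with no part capitalised.
Itga6 A_52_P324934, chr2:71692909-71692968, plus strand: attctattcctgttgccgtcacaaaataag
Itga6 A_52_P81270, chr2:71694194-71694253, plus strand: gacacccagtatggacctacagtttcaact
Itga6 A_51_P262401, chr2:71695973-71696032, plus strand: tctggagtatcttggagcctagcacactgg
Itga1 A_52_P518922, chr13:115821387-115825525, minus strand: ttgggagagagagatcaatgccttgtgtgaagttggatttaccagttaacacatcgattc
Itga1 A_52_P459929, chr13:115756765-115758419, minus strand: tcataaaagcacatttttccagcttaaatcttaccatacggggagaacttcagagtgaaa
Cd44 A_52_P523459, chr2:102651667-102651726, minus strand: gccaattgcttaggtatgtacaatgagttt
Cd44 A_52_P229536, chr2:102652907-102652966, minus strand: cactgggatcttatcatcagataagcaggt
The 3 Itga6 probes follow each other along chromosome 2 with no base in common. The upper Itga1 probe spans 4139 bases of genome and the lower 1655, so both bridge an intron. Both Cd44 probes are assigned to the same RefSeq transcript in the files.

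Itga6 fell on all 3 of its probes. Its brightest probe, A_51_P262401, gave log2 ratios of VIP over untreated of -0.55, 0.03, -0.54, -0.33, -0.54 and -0.05 on replicates 1 to 6. Ratios were negative on 5 of 6 arrays, and the 3 arrays with VIP in Cy5 lay below the 3 with VIP in Cy3. With the dye effect fitted for this probe (-0.21), the log2 ratio was -0.33 ± 0.0503 (SE, n = 6), or 1.26-fold lower (adjusted p = 0.00666 by limma). The normalized log2 signal of this probe averaged 13.83 ± 0.282 (SD, n = 6) with VIP and 14.16 ± 0.220 without. Mean ratios on the 3 slides were -0.26, -0.43 and -0.30.

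The second Itga6 probe, A_52_P81270, showed almost no dye effect (0.01). Its ratios were -0.22, -0.31, -0.24, -0.22, -0.18 and -0.16, negative on 6 of 6 arrays, with a fitted log2 ratio of -0.22 ± 0.0409 (SE, n = 6, adjusted p = 0.0171 by limma over all 27454 kept probes). Probe A_52_P324934 gave -0.54, 0.15, -0.89, -0.43, -0.63 and -0.70, and its fit was -0.51 ± 0.0916 (SE, n = 6, adjusted p = 0.0157 by limma over all kept probes). It was negative on 5 of 6 arrays, and replicate 2 was the exception, as for the brightest probe. The 3 fits lie in the order of fall A_52_P324934, A_51_P262401, A_52_P81270, and the 95% intervals of the first (-0.71 to -0.30) and the last (-0.31 to -0.13) overlap. Taken alone, A_52_P81270 lost its call without replicate 1 or 5 (adjusted p = 0.0788 and 0.0702 by limma) and A_52_P324934 without replicate 4 or 5 (0.0570 and 0.0575 by limma). The call for Itga6 as a gene held without each replicate in turn, with fits from -0.37 to -0.28, and was lost without slide 1 (adjusted p = 0.0514) and without slide 3 (0.0620), with limma in each case. It was also lost with the signals as processed by the scanner software (-0.34, adjusted p = 0.101 by limma). Over all 19 alternatives the adjusted p by limma ran from 0.00409 to 1.00. The 1.00 came from the fit that took the 12 channels as unpaired, and the next highest was 0.180, without the dye term.

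Itga1 fell by 0.37 on the log2 scale (± 0.0749 SE, n = 6, 1.29-fold, adjusted p = 0.0259 by limma), a value that rests on a single probe. Probe A_52_P518922 gave ratios of -0.77, 0.16, -1.28, 0.23, -0.60 and 0.06 on replicates 1 to 6. All 3 arrays with VIP in Cy5 were negative and all 3 with VIP in Cy3 were slightly positive, so that the ratio was lower on 3 of 6 arrays, and the dye effect fitted for this probe was -0.52. The mean was below 0 because the negative ratios were the larger ones, and without a dye term the same mean had an adjusted p of 0.592 by limma. With the dye effect removed all 6 arrays were below 0. That removal gives both dye orientations the same mean, so the shared sign is no separate support for the fall. Slide means, which hold 1 array of each orientation, were -0.31, -0.52 and -0.27.

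The other Itga1 probes, A_52_P459929 and A_51_P268944, were not well above background on any array in either channel, while A_52_P518922 was well above it on all 6 in both. The call for Itga1 was lost without replicate 1, 2, 4 or 6 in turn (adjusted p from 0.0549 to 0.0916 by limma) and kept without replicate 3 or 5. Over the 19 alternatives its value stayed between -0.44 and -0.27, it was called in 8 of them, and its adjusted p by limma ran from 0.0129 to 1.00. The 1.00 again came from the unpaired fit, and the next highest was 0.592, without the dye term. The gene Pelo, which lies within Itga1 in the RefSeq table of GRCm38.p6, was looked up after these values were seen. Its log2 ratio was -0.01 ± 0.0381 (SE, n = 6). What the bright Itga1 probe detects was not settled, and the part of Pelo in its signal was not tested.

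**Figure D1:**
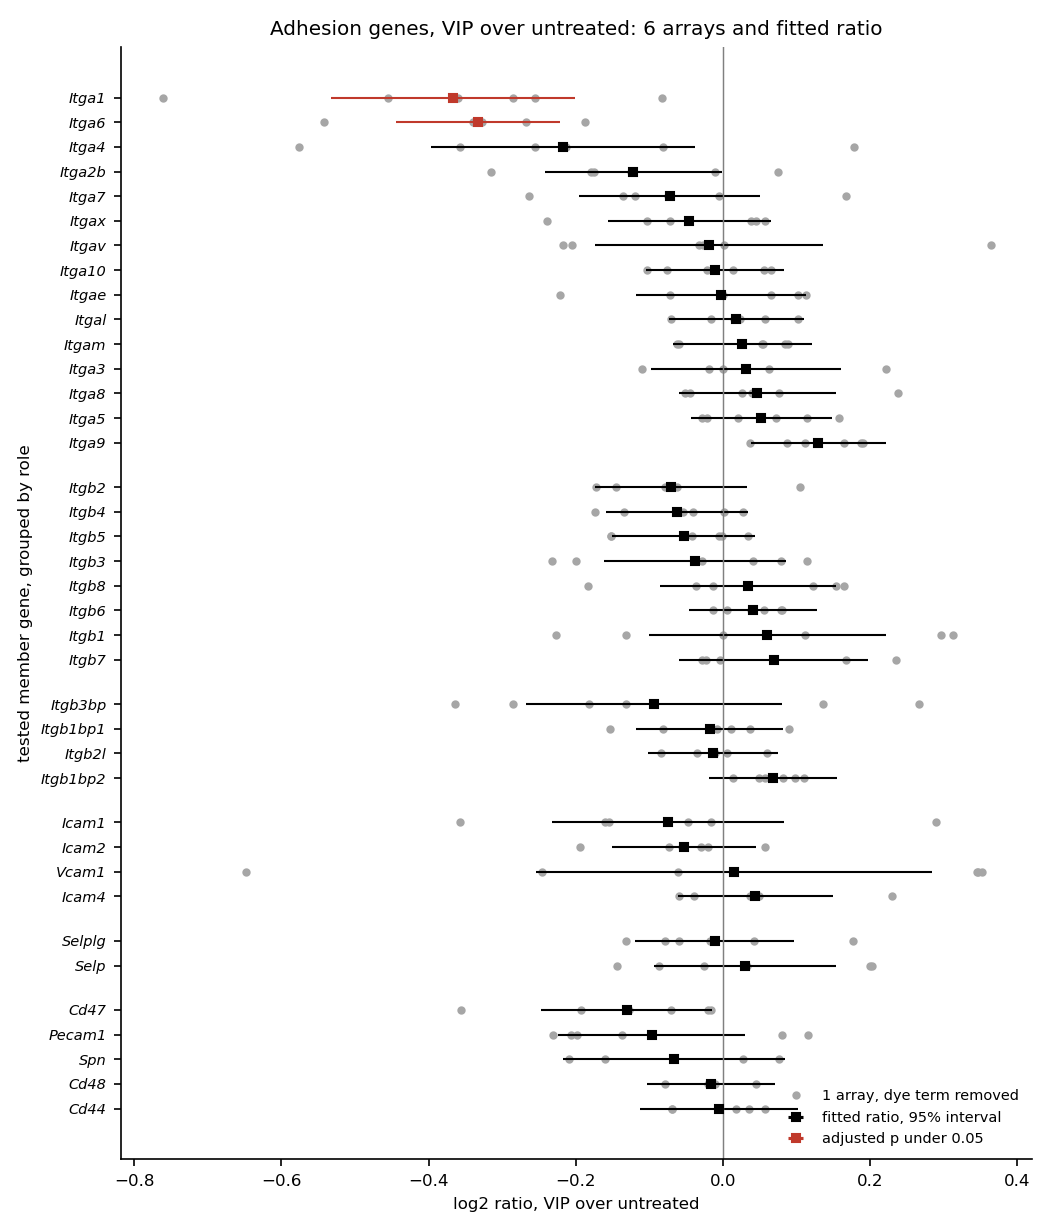
Fitted log2 ratios of VIP over untreated for the 38 tested adhesion genes (squares, with 95% intervals), grouped by role, with each array's value after removal of the fitted dye effect (grey points). Itga1 (-0.37) and Itga6 (-0.33) are the 2 red squares, and 32 of the 38 squares lie within 0.1 of 0.

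Itga4, the alpha chain of VLA-4 and alpha4beta7, had 6 kept probes, and every one was fitted below 0, from -0.22 to -0.04, with none called. The brightest, A_52_P223495, gave -0.06, 0.03, 0.07, -0.41, -0.21 and -0.73 on replicates 1 to 6, so it was lower on 4 of 6 arrays and lowest on replicate 6. Its fit was -0.22 ± 0.0811 (SE, n = 6, adjusted p = 0.204 by limma). A_52_P373392 was fitted at -0.21 and was lower on 5 of 6 arrays, and A_52_P63892 at -0.18, also lower on 5. A_52_P526816 had the steadiest ratios, -0.15, -0.10, -0.12, -0.05, -0.18 and -0.03, lower on 6 of 6 arrays with a fit of -0.10 ± 0.0392 (SE, adjusted p = 0.213 by limma over all kept probes). The 2 others were fitted at -0.12 (A_52_P545336) and -0.04 (A_51_P400884), each lower on 3 of 6 arrays. Probes of 1 gene share its RNA, so they are no replicates of each other. Without replicate 2, Itga4 passed the test, at -0.32 (adjusted p = 0.0403 by limma).

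Itgal, the alpha chain of LFA-1, did not pass the test. Its brightest probe gave 0.13, -0.13, 0.21, -0.10, 0.04 and -0.05, positive on the 3 arrays with VIP in Cy5 and negative on the 3 others. The fit was 0.02 ± 0.0414 (SE, n = 6), with a 95% interval from -0.07 to 0.11, and its second probe was fitted at 0.03. Itga9, whose chain pairs with Itgb1 and binds tenascin and osteopontin, had the highest value of the 38 genes. Its ratios were 0.26, -0.01, 0.13, 0.02, 0.28 and 0.10, and its fit of 0.13 ± 0.0416 (SE, n = 6) did not pass (adjusted p = 0.136 by limma). Its second probe was fitted at 0.07. Itga2b, the platelet fibrinogen receptor chain, was at -0.12 ± 0.0542 (adjusted p = 0.292 by limma) and lower on 5 of 6 arrays.

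The leukocyte alpha chains Itgae (-0.0018 ± 0.0522), Itgam (0.03 ± 0.0426) and Itgax (-0.05 ± 0.050) were within 0.1 of 0 on the log2 scale. The Itgam probe was dim, well above background on 2 arrays with VIP and 3 without, and a second Itgae probe was fitted at -0.06. A second Itgax probe, A_52_P424887, was left out because its spot was marked on 5 arrays. With marked spots kept it stood for the gene, at 0.16 (adjusted p = 0.0891 by limma), positive on the 3 arrays with VIP in Cy5 and negative on the 3 others. Itgae pairs with Itgb7 in tissue-resident lymphocytes, and Itgam and Itgax pair with Itgb2 on myeloid cells. No probe is named Itgad. Itgav, a chain of vitronectin receptors, had 5 kept probes between -0.05 and 0.03. The 3 kept probes of Itga3, a laminin receptor chain, all gave 0.03, and the 2 of Itga7, the laminin receptor chain of muscle, differed in sign (-0.07 and 0.11). The second Itga7 probe was marked on replicate 6. With marked spots kept it was at -0.09, with replicate 6 at -1.09, and the signs no longer differed. The 3 alpha chains not yet named, Itga5 of the fibronectin receptor (0.05 ± 0.0434), Itga8 (0.05 ± 0.0481) and Itga10, a collagen receptor chain (-0.01 ± 0.0425), each had 1 kept probe and were not called. Over the 15 tested alpha chains the median was -0.01, with 9 negative and 6 positive, and 10 lay within 0.1 of 0. Over all genes tested the median log2 ratio was -0.0047, 52.9% were negative and 78.9% lay within 0.1 of 0.

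**Figure D2:**
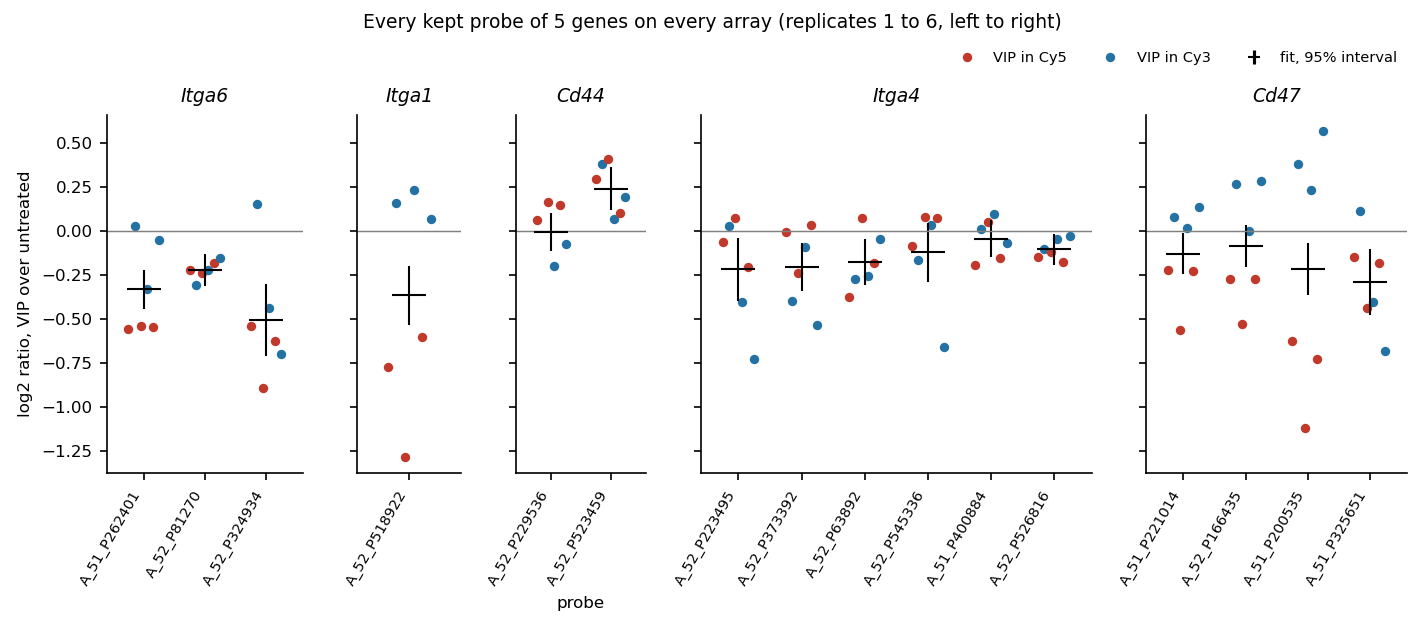
Log2 ratios of VIP over untreated for every kept probe of Itga6, Itga1, Cd44, Itga4 and Cd47 on replicates 1 to 6 (points, coloured by the dye of the VIP sample), with the fitted ratio and its 95% interval (black). A_52_P81270 of Itga6 and A_52_P523459 of Cd44 lie on 1 side of 0 on all 6 arrays, whereas the Itga1 probe separates by dye.

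None of the 8 tested beta chains was called, and all 8 lay within 0.1 of 0, from -0.07 to 0.07. By limma none of them had an unadjusted p under 0.05 either. Itgb2, the beta chain of LFA-1, gave 0.18, -0.40, 0.19, -0.15, 0.18 and -0.43 on replicates 1 to 6, positive with VIP in Cy5 and negative with VIP in Cy3. Its fit was -0.07 ± 0.0467 (SE, n = 6, 95% interval -0.17 to 0.03). Itgb7 was measured on 5 arrays, at -0.14, 0.10, 0.10, 0.30 and -0.16 on replicates 1 to 5, and its fit was 0.07 ± 0.0574. Itgb4, which pairs with Itga6 in epithelia, was at -0.06 on both kept probes, which share 50 bases of sequence. Itgb3, the partner of Itga2b and Itgav, was fitted at -0.04 and -0.05 on its 2 probes, the first with a dye effect of 0.39. The 3 probes of Itgb8, a partner of Itgav, differed in sign (0.03, -0.02 and -0.03). Itgb5 (-0.05 ± 0.0441) and the dim Itgb6 (0.04 ± 0.0394), both known as partners of Itgav, completed the group.

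Itgb1, the partner of Itga1, Itga4 and Itga6, was measured by a probe printed in 10 spots and by a single-spot probe. The 10-spot probe gave -0.22, 0.31, 0.30, -0.14 and 0.12 on replicates 2 to 6 and -0.0034 on replicate 1. Its fit was 0.06 ± 0.0729 (SE, n = 6), and the second probe was fitted at 0.07. Spots of 1 array agreed closely: their median SD within an array was 0.0596, against 0.221 between arrays with the dye effect removed. The spread of Itgb1 was therefore between arrays, and slide means were -0.11, 0.30 and -0.01.

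Of the 4 tested genes that carry an Itgb name but are set apart by the rule for beta chains, none was called. They were Itgb1bp1, which encodes the integrin cytoplasmic tail binder ICAP-1, Itgb1bp2 (melusin, a muscle protein), Itgb3bp, a kinetochore protein, and the beta-2-like gene Itgb2l. Itgb1bp2 was positive on all 6 arrays, from 0.01 to 0.15, with a fit of 0.07 ± 0.0392 (adjusted p = 0.429 by limma). The 3 Itgb3bp probes differed in sign, from -0.09 to 0.06, and the 2 of Itgb1bp1 were at -0.02 and 0.03.

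Among the integrin ligands none of Icam1, Icam2, Icam4 and Vcam1 was called, and all 4 fits lay within 0.1 of 0. Icam1, the main ligand of LFA-1, gave -0.33, 0.13, -0.44, -0.07, -0.30 and 0.57 on its 10-spot probe, lower on 4 of 6 arrays, and its fit was -0.07 ± 0.0713 (SE, n = 6). The median SD of its spots within an array was 0.0316, against 0.215 between arrays with the dye effect removed. Its single-spot probe was fitted at -0.02. Icam2, another LFA-1 ligand, was at -0.05 ± 0.0444 and Icam4 at 0.04 ± 0.0475.

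Vcam1, the ligand of VLA-4, had the widest error of the 38 genes, 0.02 ± 0.122 (SE, n = 6), with a 95% interval from -0.25 to 0.28. Its ratios were 0.01, 0.09, -0.99, 0.28, 0.01 and 0.69, lowest on replicate 3 and highest on replicate 6. The dye effect fitted for this probe was -0.34. With it removed replicate 3 was at -0.65, and replicates 1, 5 and 6 were nearly level at 0.348, 0.346 and 0.352. A second Vcam1 probe, marked on replicates 2 and 6 and left out, was at -0.17, 0.14, -0.07 and 0.10 on the 4 others. With marked spots kept it was at 0.16 on replicate 2, 0.13 on replicate 3 and -0.44 on replicate 6. It was then lowest on replicate 6 and did not share the order of the first probe. In spleen Vcam1 is a known product of red pulp macrophages and stroma. The summed signal of 11 macrophage and monocyte markers, all well above background, was also lowest with VIP on replicate 3 (log2 ratio -0.30) and highest on replicate 6 (0.40). That of the 9 neutrophil markers, 6 of them well above background, ran from -0.37 on replicate 3 to 0.87 on replicate 6. The macrophage and neutrophil lists are named here because their extremes fell on replicates 3 and 6, so the match is no test of a source. These marker ratios of single arrays still hold any dye effect. On these arrays the B cell markers were at -0.24 and -0.29 and the erythroid markers at 0.04 and -0.49. Summed normalized signals lay between 6760 and 65667 with VIP and 8324 and 65240 without for macrophages, and between 1059 and 2368 with VIP and 1029 and 2686 without for neutrophils. Their part in the values of Vcam1 was not tested.

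Neither of the 2 tested genes for selectins or their ligands was called. Selplg, the gene of the T cell ligand of selectins, was at 0.13, -0.32, 0.23, -0.01, 0.17 and -0.27, positive with VIP in Cy5 and negative with VIP in Cy3. Its fit was -0.01 ± 0.0488 (SE, n = 6, 95% interval -0.12 to 0.10). A brighter Selplg probe, A_51_P131358, was left out because its spot was marked on replicates 2 and 6, and on replicates 1, 3, 4 and 5 it was at 0.09, 0.24, 0.08 and 0.07. With marked spots kept it was fitted at 0.04 ± 0.0482, with replicates 2 and 6 at -0.08 and -0.17. Without slide 1 and without slide 3, A_51_P131358 stood for Selplg in place of the probe reported, at 0.12 both times and without a call. Replicate 4 was then its only array with VIP in Cy3, so the move is a change of probe. Selp, the gene of P-selectin of platelets and endothelium, was at 0.03 ± 0.0558 on a probe that was well above background with VIP on 3 arrays and without it on 2. A brighter 10-spot Selp probe was left out because all its spots were marked on 2 arrays.

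Cd44, the receptor for hyaluronan that rises on activated and memory T cells, gave different answers on its 2 kept probes. The brightest, A_52_P229536, was 0.06, 0.17, -0.20, 0.15 and -0.07 on replicates 1, 3, 4, 5 and 6, and its fit was -0.0052 ± 0.0479 (SE, n = 5, adjusted p = 0.976 by limma). Its spot was marked on replicate 2. When marked spots were kept, replicate 2 was at 0.19 and the fit of this probe at 0.05 ± 0.0543 (SE). The 10-spot probe A_52_P523459 was higher with VIP on 6 of 6 arrays, at 0.29, 0.38, 0.41, 0.06, 0.10 and 0.19. Its fit was 0.24 ± 0.0547 (SE, n = 6, 1.18-fold), and it passed over all kept probes (adjusted p = 0.0441 by limma).

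Within an array the spots of that Cd44 probe had a median SD of 0.0704, and the lowest spot on any array was at 0.0070, so the sign held spot by spot. Replicate 2 held 1 spot at 0.87. The call of this probe was lost without any replicate but replicate 4, with fits from 0.20 to 0.28 and adjusted p up to 0.138 by limma. Another Cd44 probe, A_51_P407053, was well above background on 2 arrays with VIP and 1 without, too few to be kept. Because the brightest probe stands for a gene, Cd44 is not among the 2 called genes, and with the mean of its kept probes it was at 0.16 (adjusted p = 0.185 by limma).

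**Figure D3:**
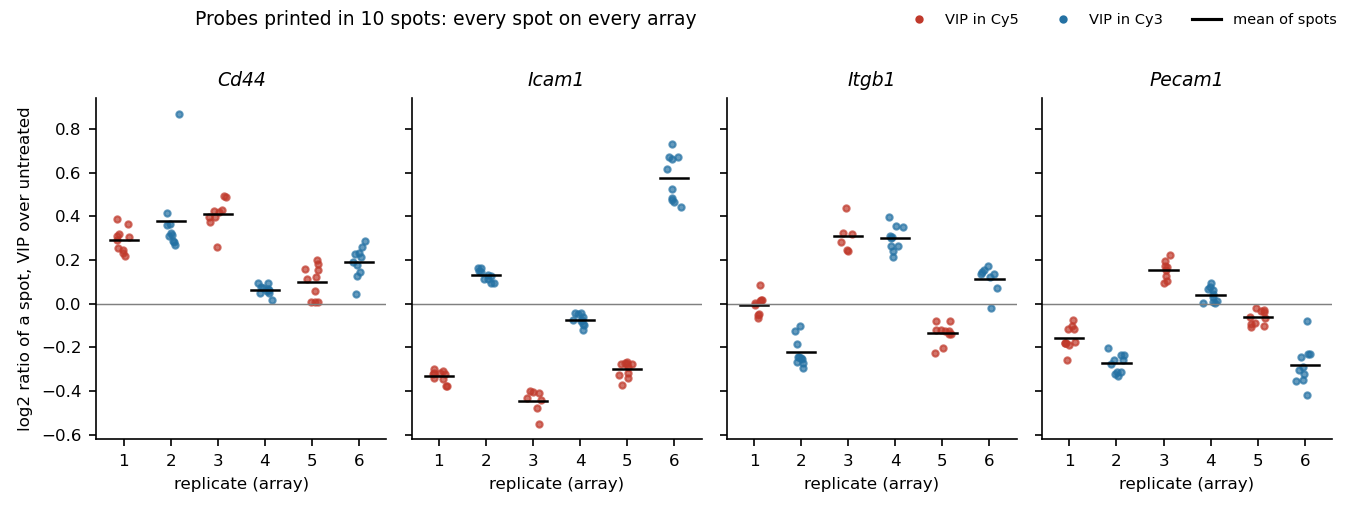
Log2 ratios of single spots of the 4 adhesion gene probes printed in 10 spots and measured on all arrays, by replicate and coloured by the dye of the VIP sample, with the mean of the spots as a bar. The Cd44 spots lie above 0 on all 6 arrays, and for Icam1, Itgb1 and Pecam1 the spots of an array lie close together while the arrays differ.

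Cd47, the ligand of SIRPalpha and a partner of integrins, had 4 kept probes, all fitted below 0, from -0.29 to -0.09, with none called. The brightest, A_51_P221014, gave -0.22, 0.08, -0.56, 0.01, -0.23 and 0.14, lower on the 3 arrays with VIP in Cy5, and its fit was -0.13 ± 0.0525 (SE, n = 6, adjusted p = 0.239 by limma). A_51_P325651 was lower on 5 of 6 arrays, at -0.15, 0.12, -0.44, -0.41, -0.18 and -0.68, with the lowest fit of the 4, -0.29 ± 0.0855 (adjusted p = 0.113 by limma over all kept probes). With slide as a block this probe and A_51_P200535 passed (adjusted p = 0.0372 and 0.0434 by limma).

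Of the remaining receptors, Spn (CD43, the leukocyte sialomucin) was at -0.07 ± 0.0661 on 4 arrays and between -0.07 and -0.02 on its 3 kept probes. Pecam1, a homophilic receptor of endothelium and leukocytes, was at -0.10 ± 0.0575 (adjusted p = 0.452 by limma), with a second probe at -0.07. Cd48, the ligand of CD2 and CD244, was at -0.02 ± 0.0394, with a second probe at -0.04. None of the 5 genes of this group was called.

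At the level of probes, 5 of the 72 kept adhesion probes were called, the 3 of Itga6, the 1 of Itga1 and the 10-spot probe of Cd44, and over all kept probes 2.88% were called. Of the 20 genes with more than 1 kept probe, 14 had all their probes on the same side of 0. The median log2 ratio of the 38 genes was -0.01, and 24 of them (63.2%) were negative, against 52.9% of all genes tested. Sizes were small: 84.2% of the adhesion genes and 78.9% of all genes lay within 0.1 of 0.

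**Figure D4:**
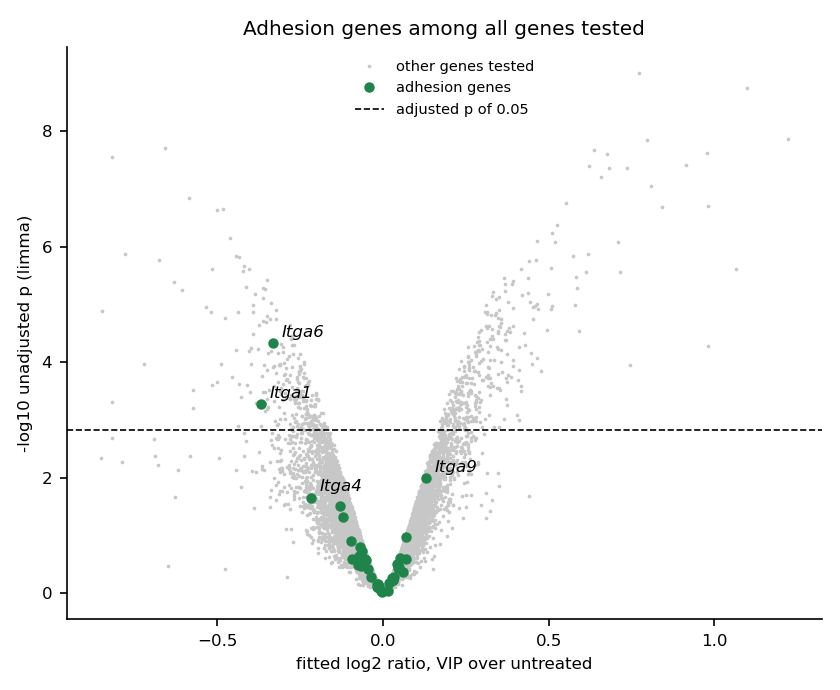
Fitted log2 ratio of VIP over untreated against the unadjusted p by limma (as -log10) for all 19225 genes tested, with the 38 adhesion genes in green. Itga6 and Itga1 lie above the dashed line at an adjusted p of 0.05, and all other adhesion genes below it.

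The genes around the adhesion receptors were read from lists taken with earlier results of these data known. In the list for integrin activation and linkage to actin, 40 of 43 genes were tested, and 4 rose and 3 fell, with a median of 0.01, where 3.08% of all genes tested were called. An unadjusted p under 0.05 was reached by 15 of the 40, against 16.7% of all genes. Since the list was taken with earlier results known, these counts are no independent evidence. Rapgef3, which encodes the cyclic AMP-activated Rap1 exchange factor Epac1, rose by 0.47 ± 0.0454 (SE, n = 6, 1.38-fold, adjusted p = 0.000593 by limma), with 6 of 6 arrays above 0. Its ratios were 0.45, 0.48, 0.65, 0.28, 0.52 and 0.41, and its call held in 18 of 19 alternatives, all but the unpaired fit (adjusted p from 0.000262 to 0.0602 by limma). Fyb, the adaptor ADAP that links the T cell receptor to integrins, rose by 0.31 ± 0.0414 on 6 of 6 arrays (adjusted p = 0.00298 by limma). The call of Fyb held in 13 of 19 alternatives and was lost, among others, without the dye term (adjusted p = 0.152 by limma). Skap1, the gene of ADAP's partner SKAP55, fell by 0.26 ± 0.0564 on 5 of 5 arrays (adjusted p = 0.0430 by limma). The call of Skap1 was lost without replicate 1, 3, 5 or 6 (adjusted p from 0.0549 to 0.136 by limma). Without replicate 2 or 4 the gene was not tested, and it was called in 5 of the 17 alternatives that tested it.

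Rapgef6, another exchange factor for Rap, fell by 0.35 ± 0.0549 on 6 of 6 arrays (adjusted p = 0.00803 by limma), a call that held in 15 of 19 alternatives. Sipa1l1, a GTPase-activating protein for Rap, rose by 0.29 ± 0.0442 on 5 of 6 arrays (adjusted p = 0.00696 by limma). With the mean of its kept probes Sipa1l1 was at 0.16 and not called (adjusted p = 0.0706 by limma), and it was called in 12 of the 19 alternatives. Actn1, alpha-actinin, which ties integrin tails to actin, fell by 0.24 ± 0.0395 on 6 of 6 arrays (adjusted p = 0.0107 by limma). The call of Actn1 held in 10 of 19 alternatives and was lost, among others, without replicate 1 or 5 (adjusted p = 0.0562 and 0.0506 by limma). The seventh called gene, Dok2, an adaptor that binds integrin tails, was named after its value was seen (0.18 ± 0.0410, higher on 5 of 6 arrays, adjusted p = 0.0473 by limma). Of the other exchange factors for Ras or Rap on the list, none passed. Rasgrp1 was at -0.26 ± 0.0650, Rapgef4 at -0.19 ± 0.0527, Rapgef2 at 0.12 ± 0.0629, Rasgrp2 at -0.07 ± 0.0457 and Rapgef1 at -0.0022 ± 0.0464. These 5 were named after their values were seen.

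In the list of signalling from engaged integrins 37 of 39 genes were tested, with 2 lower, none higher by limma and a median of -0.03. Over all genes 3.08% were called. An unadjusted p under 0.05 was reached by 11 of the 37, against 16.7% of all genes. Myh9, non-muscle myosin heavy chain, fell by 0.36 ± 0.0605 on 6 of 6 arrays (adjusted p = 0.0109 by limma). Dock2, the Rac exchange factor of lymphocyte migration, fell by 0.26 ± 0.0462 on 5 of 6 arrays (adjusted p = 0.0142 by limma). Without replicate 1 neither passed (adjusted p = 0.0502 for Myh9 and 0.0693 for Dock2 by limma). Dock2 was also lost without replicate 5 or 6 (adjusted p = 0.0627 and 0.0509 by limma). Over the 19 alternatives Myh9 was called in 13 and Dock2 in 9.

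Of the other lymphocyte adhesion receptors 34 of 44 were tested, with a median of -0.02 and 14 fitted above 0. Among the enzymes that glycosylate and sulfate selectin ligands, all 16 were tested and 1 rose, where 3.08% of all genes were called. Chst2, a GlcNAc 6-O-sulfotransferase gene, rose by 0.43 ± 0.0654 on 6 of 6 arrays (adjusted p = 0.00696 by limma). The call of Chst2 held in 16 of 19 alternatives. None of 8 tested cytoskeletal linkers and none of 18 tested matrix ligand genes was called by limma, and 2 and 1 of them had an unadjusted p under 0.05, against 16.7% of all genes. The lowest p belonged to Cd2ap (-0.12 ± 0.0443) and Ank3 (-0.14 ± 0.0498), and to Col1a2 (0.12 ± 0.0534) and Nid1 (-0.14 ± 0.0686).

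All 10 CD4 T cell markers were well above background on all 6 arrays in both channels, and none was called. Markers of other cells were measured too: 9 of 10 of B cells, both of CD8 T cells, 11 of 11 of macrophages, 6 of 9 of neutrophils on the array, 7 of 7 of NK cells, 5 of 5 of plasma cells, 5 of 6 of dendritic cells, 5 of 7 of platelets, 6 of 8 of erythroid cells and 3 of 5 of endothelium and stroma were well above background. The log2 ratio of summed signals, averaged over both dye orientations, was -0.09 for the CD4 T cell markers. For the other lists it ran from -0.09 (erythroid) to 0.13 (CD8 T cells), and was -0.03 for platelets, a known source of Itga6 and Itga2b. The single marker called was Xbp1, listed for plasma cells and also present in other cells (0.31, higher). The part of these cells in the adhesion results was not tested. Log2 ratios of all kept probes correlated between arrays from -0.27 to 0.70, and from 0.33 to 0.70 between arrays of the same dye orientation.

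**Figure D5:**
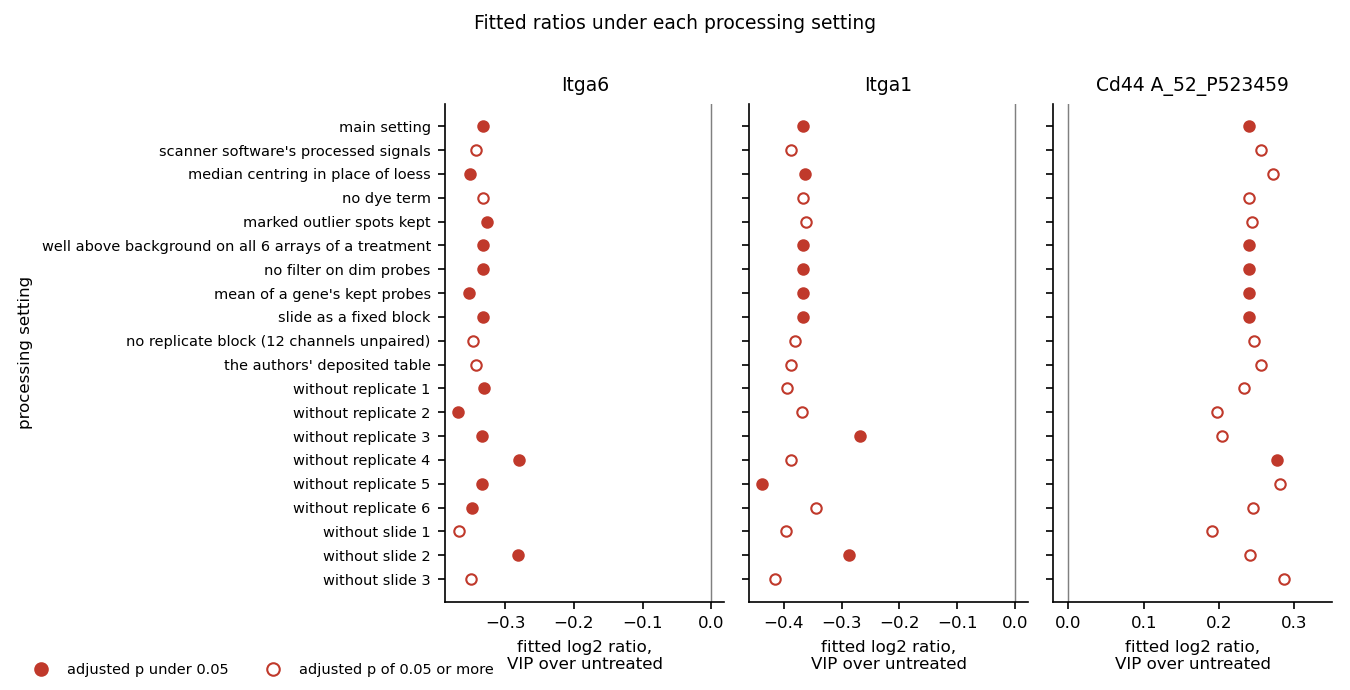
Fitted log2 ratios of Itga6, Itga1 and the 10-spot Cd44 probe under the main setting, 10 other settings and with each replicate or slide left out, where filled points have an adjusted p under 0.05. No setting changed a sign, Itga6 was called in 13 of the 19 alternatives, Itga1 in 8 and the Cd44 probe in 5. These are not counts of independent checks. The processed signals and the deposited table hold nearly the same ratios, and the filter settings change only what is tested alongside. The mean of kept probes cannot change the ratio of the Cd44 probe or of Itga1, which has 1 kept probe.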

How the data were processed

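Spot intensity values on 6 arrays were deposited by the authors as scanner tables of Agilent Feature Extraction 9.5.1.1 with positions on mm9, per the file headers. The authors' deposited table of log10 ratios matched the scanner ratios with the sign turned on replicates 2, 4 and 6 (largest difference 4.77e-06), has a median of 0 on every array and served as an alternative. Signals were background-corrected with normexp (offset 50) and normalized by loess within arrays using limma 3.58.1 (R 4.3.3). Control spots and spots marked as outliers (1.93% to 8.96% per array) had no weight. Replicate spots were averaged. Probes had to be well above background on 3 or more of the 6 arrays in either treatment and unmarked on 2 or more arrays with VIP in each dye. The brightest kept probe stands for a gene. Gene names were updated by RefSeq accession (24844 of 41174 probes), and Itgb1bp3 is listed there under a name outside the family.

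The model was the log2 ratio of VIP over untreated with a dye term for each probe, moderated by eBayes, with 4 residual and 6.54 prior degrees of freedom and 2-sided p-values adjusted by Benjamini-Hochberg. Pairing comes from the array, which holds both samples of a replicate number. Median mean signals were 83.6 to 108 in Cy3 and 148 to 235 in Cy5, and the number of arrays limits the precision. Alternatives changed the signals, the normalization, the dye term, the filters, the choice of probe, the block and the arrays used. They overlap, so counts of them are not counts of independent checks. Values for probes lost to outlier marks and the leaving out of slides were alternatives added after seeing the data. Named were the called genes, the 4 of lowest p in each role group, every gene with more than 1 kept probe and the leukocyte integrin chains, and from the lists around them up to 6 called genes, or the 2 of lowest p. The genes and lists were chosen with earlier results of these data known. The scripts were tested on simulated data. A result of the list of other lymphocyte adhesion receptors is not reported here.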

Additional observations from a re-analysis of the deposited data

Results flagged for a closer look

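Icam4, the red cell ligand of leukocyte integrins, had 1 array far from the others: with the dye effect removed, replicate 5 was at 0.23, and the other 5 arrays lay between -0.06 and 0.05. Such a gap is met by chance in about 1 of 20 groups, and 38 genes were looked at. In each treatment 4 of the 6 arrays had this probe well above background.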

How the results depend on the processing

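With 6 arrays of pooled spleens and small changes, many calls depended on the processing. The 2 called adhesion genes, 5 called adhesion probes and 593 called genes became 0, 0 and 38 with signals as processed by the scanner software, and 0, 0 and 41 with the authors' deposited table. They became 0, 0 and 124 without the dye term, and 0, 0 and 5 with no replicate block, where the 12 channels were taken as unpaired samples. Median centring gave 308 genes, both adhesion genes and 3 probes, and marked spots kept gave 1 adhesion gene (Itga6) and 3 probes. Leaving out each replicate in turn gave 247 to 461 genes, 1 to 2 adhesion genes and 2 to 5 probes. Without replicate 2 the pair was Itga6 and Itga4, and without replicate 4 it was Itga6 and Cd44 (0.28, adjusted p = 0.0429 by limma), where the 10-spot probe stood for Cd44 and the sign differs from the value reported. The 10-spot probe also stood for Cd44 without replicate 6 (0.24, not called). Cd44 ran from -0.0153 to 0.28 over these 6 fits, a range that mixes its 2 kept probes. Without slide 1 there were 124 genes, 0 adhesion genes and 2 probes, without slide 2 there were 2 probes, and without slide 3 there were 153, 0 and 0. Over single genes and probes, 972 alternative values kept their side of the threshold with no change of sign beyond 0.1, 117 lost a call, 6 gained one, 6 changed sign beyond 0.1 without a call and 1 (Cd44) with one. Genes near background have only a bound on their change.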
